A study of Mus musculus with 4 samples.

Results

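The genes described here are the core machinery by which mammalian mitochondria fuse and divide. They are the fusion GTPases Mfn1, Mfn2 and Opa1, the proteases Oma1 and Yme1l1 that cut OPA1, the fission GTPase Dnm1l, and Fis1, Mff, Mief1 and Mief2, which sit on the outer membrane and take part in its recruitment. The 10 genes were chosen by name among the 55487 genes of the count table, and all 10 were measured. Their transcripts were read in skeletal progenitors sorted from newborn mouse hindlimbs, in libraries labelled cKO and WT.

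Mitochondria form a network whose shape is set by the balance of fusion and division. MFN1 and MFN2 join the outer membranes of neighbouring mitochondria and OPA1 joins the inner membranes and holds cristae in shape, while DRP1, the product of Dnm1l, is drawn from the cytosol to the outer membrane and constricts it. OPA1 works as a mixture of long and short forms, and OMA1, which is switched on by loss of membrane potential, and YME1L1 make the short ones. Much of the control of this machinery acts on proteins, by cleavage, phosphorylation and ubiquitination, which transcript counts do not read.

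ECSIT is an assembly factor of respiratory complex I, and the study deleted its gene in the limb mesenchyme with Prx1-cre, a recombinase driven by a limb bud enhancer of Prrx1. By the study's methods the cKO mice were Ecsit fl/fl with Prx1-cre and the Rosa26 mT/mG reporter, and the controls carried Ecsit +/+ with the same Cre and reporter, so that the recombined cells of both carry GFP. Cells of mice at postnatal day 1 were sorted as negative for CD45, Tie2, Ter119 and DAPI, and polyadenylated RNA was sequenced in 2 libraries per label, cKO 2 and cKO 3 against WT 2 and WT 3. Cre in both arms marks the whole Prx1 lineage of the limb and not a single cell type. The labels do not say whether a library is 1 animal or a pool, so the p-values below measure the spread between these libraries only.

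The labels of the libraries conflict. The titles say cKO or WT, but the genotype field gives EcsitPrx1;Rosa26mTmG for the libraries titled WT and Ecsitfl/fl;Rosa26mTmG for those titled cKO. Cells of the latter genotype, without Cre, would lack the GFP by which the study sorted recombined cells. The titles are followed here, and each direction below reverses if the labels were exchanged. The deleted gene goes against the titles: Ecsit stood at 33.6 and 30.2 CPM (counts relative to the size of the library, scaled by the trimmed mean of M-values) in cKO 2 and cKO 3, against 12.6 and 18.9 CPM in WT 2 and WT 3. Its log2 fold change was 1.02 (edgeR quasi-likelihood test, Benjamini-Hochberg adjusted p = 0.0245), with adjusted p = 0.167 without cKO 2 and 0.0965 without cKO 3. Since counts were summed over the whole gene, exons that the deletion may leave in place are included. Fold changes also ran with gene length, as described below. Ecsit has 2490 bases of exon, and the median log2 fold change of genes of similar length was 0.44. With a correction for exon length Ecsit was at 0.80 (edgeR adjusted p = 0.0158), and with the longest transcript at 0.69 (adjusted p = 0.0202).

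Total counts ran from 18266573 to 20152872 per library. The libraries labelled WT lay further apart than those labelled cKO: Pearson's r of log2 CPM across genes, which are not independent replicates, was 0.986 between cKO 2 and cKO 3 and 0.970 between WT 2 and WT 3. Genes of the cytosolic ribosome took 10.03% and 10.13% of counts in cKO 2 and cKO 3, against 3.16% and 6.21% in WT 2 and WT 3, and genes of the mitochondrial genome took 5.11% and 4.18% in cKO 2 and cKO 3, against 2.82% and 2.95% in WT 2 and WT 3. Between 23362 and 23543 genes were detected in the libraries labelled cKO and between 26084 and 26275 in those labelled WT. Markers of other cells moved with the labels as well. Summed CPM of 5 erythroid markers, mainly haemoglobin genes, was 1604 to 1667 in the libraries labelled cKO and 482 to 535 in those labelled WT, and that of 7 muscle markers was 83.2 to 89.4 in those labelled cKO and 11.7 to 12.6 in those labelled WT. The 10 markers of skeletal progenitors, Prrx1, Pdgfra and Twist1 among them, summed to 1177 to 1226 CPM in the libraries labelled cKO and 1452 to 1572 CPM in those labelled WT, and were detected throughout. Single markers did not all follow that sum. Prrx1 had 213 and 194 CPM in cKO 2 and cKO 3, against 265 and 264 CPM in WT 2 and WT 3. Twist1 overlapped, with 212 and 196 CPM against 144 and 272 CPM. Pitx1 was higher in the libraries labelled cKO, with 98.8 and 121 CPM against 46.7 and 94.3 CPM. In the libraries labelled cKO, blood markers summed to 2.97 to 3.23 CPM, endothelial markers to 47.6 to 48.0 CPM, Schwann cell markers to 2.39 to 2.41 CPM and keratinocyte markers to 2.97 to 3.73 CPM. In those labelled WT, blood markers summed to 1.58 to 2.05 CPM, endothelial markers to 49.2 to 57.4 CPM, Schwann cell markers to 7.58 to 8.68 CPM and keratinocyte markers to 3.19 to 5.07 CPM, and no marker was at 0 in all libraries. The part of these shares and cells in the results below was not tested, and in such bulk libraries fewer cells of a type and less RNA per cell cannot be told apart.

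Of the 10 genes, Fis1 alone passed the test, at a higher level in the libraries labelled cKO, and none was called lower. That is 1 of 10 called higher and 0 of 10 called lower at an adjusted p under 0.05, where 14.1% of the 16157 genes tested were called higher and 14.3% lower. For the lower direction the count was also 0 at an unadjusted p under 0.05 and 0 with DESeq2. The libraries of the 2 labels did not overlap for 9 of the genes. Mfn2, Oma1, Yme1l1, Fis1, Mff and Mief2 (6 genes) were above WT in both libraries labelled cKO, where 36.3% of all genes tested were, and Mfn1, Opa1 and Dnm1l (3 genes) were below, where 36.2% of all genes tested were. Of all genes tested 72.5% had no overlap in one direction or the other, so nothing is read from the count of 9.

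**Figure D1:**
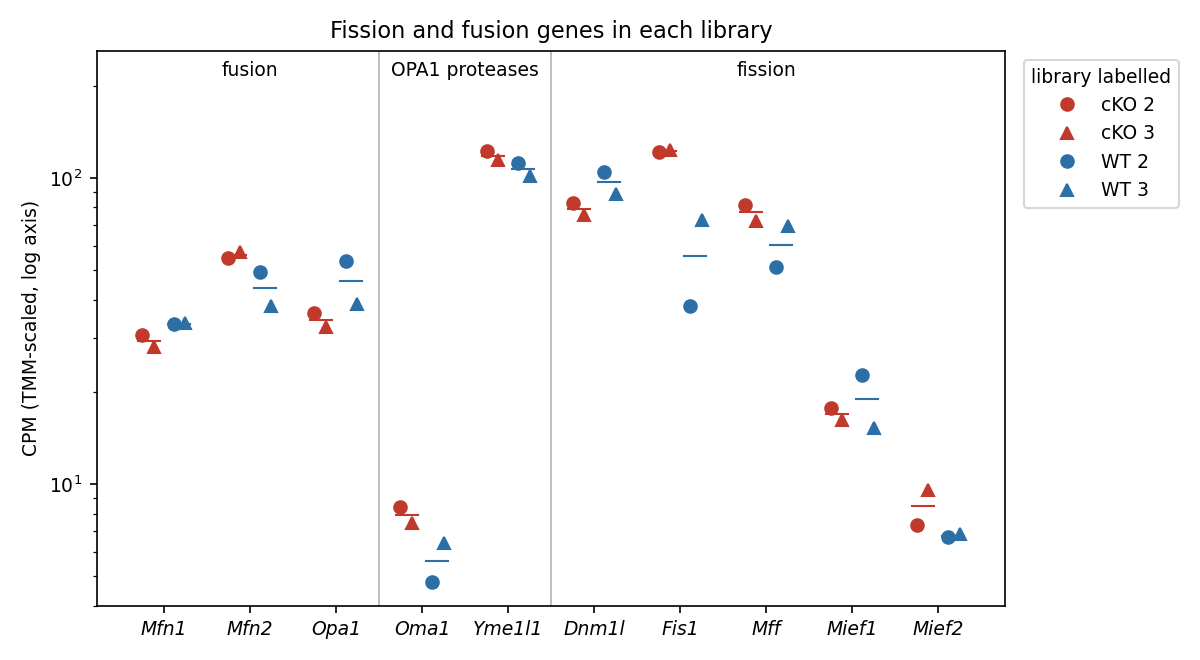
Level of each gene in CPM (log axis) in the libraries labelled cKO 2, cKO 3, WT 2 and WT 3, with a short bar at each group's mean. Fis1 lies near 122 CPM in both libraries labelled cKO, against 38.1 and 73.0 CPM in WT 2 and WT 3, and the groups overlap for Mief1.

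The promoters of Opa1 and Fis1 are shown because these genes stand at opposite ends of the fold changes among the 10. The sequences are RefSeq windows on GRCm38.p6 from 250 bases before an annotated start to 50 bases into the transcript, on the plus strand. The table held 15 such windows for the 10 genes. The Opa1 window is chr16:29579084-29579383, the first Fis1 window is chr5:136953025-136953324, and the second, at a start inside the gene, is chr5:136961827-136962126. Capitals mark matches to letters of the binding site of NRF-1, a regulator of nuclear genes for mitochondrial proteins (GCGCATGCG, or CGCATGCGC on the other strand), in the Opa1 window, where a match on each strand overlaps the other. In the Fis1 windows they mark letters of an ETS factor site such as that of GABPA (CCGGAAGT, or ACTTCCGG on the other strand).
Opa1: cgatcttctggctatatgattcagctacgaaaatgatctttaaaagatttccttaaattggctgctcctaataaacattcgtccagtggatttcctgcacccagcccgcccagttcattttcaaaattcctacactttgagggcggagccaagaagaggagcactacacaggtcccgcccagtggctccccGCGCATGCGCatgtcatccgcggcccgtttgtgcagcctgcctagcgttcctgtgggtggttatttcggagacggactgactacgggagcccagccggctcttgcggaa
Fis1, first start: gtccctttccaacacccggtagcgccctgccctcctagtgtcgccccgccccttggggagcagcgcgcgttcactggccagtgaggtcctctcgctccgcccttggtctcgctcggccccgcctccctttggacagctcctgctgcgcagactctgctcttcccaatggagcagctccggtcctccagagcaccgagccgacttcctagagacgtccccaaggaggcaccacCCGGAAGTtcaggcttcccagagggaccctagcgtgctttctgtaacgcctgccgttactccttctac
Fis1, second start: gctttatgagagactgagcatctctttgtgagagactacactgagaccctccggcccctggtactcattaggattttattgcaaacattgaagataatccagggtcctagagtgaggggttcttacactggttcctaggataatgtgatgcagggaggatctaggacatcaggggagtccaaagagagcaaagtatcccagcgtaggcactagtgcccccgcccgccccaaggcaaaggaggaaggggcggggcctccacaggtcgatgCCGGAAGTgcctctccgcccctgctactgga
The NRF-1 letters were found in the window of 1 of the 10 genes, Opa1, and in 1.75% of all 32851 windows of the table. The ETS letters were found in 4 windows of 3 of the genes, namely both windows of Fis1, that of Mfn1 and that of Mief1, and in 3.89% of all windows. The match is a description of the letters and says nothing of binding.

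Among the fusion GTPases, none passed the test, and their fold changes ran in both directions. Positions are those of GRCm38. Mfn2 (ENSMUSG00000029020.13, chr4:147873599-147904704 on the minus strand), which also tethers mitochondria to the endoplasmic reticulum, had 54.7 and 57.4 CPM in cKO 2 and cKO 3, against 49.2 and 38.2 CPM in WT 2 and WT 3. Both libraries labelled cKO lay above both labelled WT, of which WT 3 was the lower. The log2 fold change was 0.36 (95% interval -0.12 to 0.84, edgeR adjusted p = 0.216), and without WT 2 it was 0.55 and passed (adjusted p = 0.0117). Its close relative Mfn1 (ENSMUSG00000027668.13, chr3:32529465-32579239 on the plus strand), the stronger outer membrane tether, showed 30.7 and 28.1 CPM in cKO 2 and cKO 3, against 33.2 and 33.4 CPM in WT 2 and WT 3. The libraries labelled WT were nearly equal and both lay a little above those labelled cKO, with a log2 fold change of -0.18 (95% interval -0.63 to 0.27, adjusted p = 0.503). The ratio of Mfn2 to Mfn1 in CPM was 1.78 and 2.05 in cKO 2 and cKO 3 and 1.48 and 1.14 in WT 2 and WT 3. The libraries did not overlap in that ratio. Nothing is read from that, since the share of gene pairs whose ratio does not overlap was not counted.

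Opa1 (ENSMUSG00000038084.16, chr16:29579334-29654884 on the plus strand), the inner membrane GTPase, had the lowest fold change of the 10 genes. Its level was 36.1 and 32.7 CPM in cKO 2 and cKO 3, against 53.6 and 38.6 CPM in WT 2 and WT 3. WT 2 stood well above the other 3 libraries, and WT 3 was close to the libraries labelled cKO. The log2 fold change was -0.42 (95% interval -0.95 to 0.10, edgeR adjusted p = 0.183). Without WT 3 it was -0.64 and passed (adjusted p = 0.00291). The ratio between the libraries labelled WT, WT 3 over WT 2, was -0.47 on the log2 scale and so larger in size than the difference between the labels.

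The proteases that cut OPA1 were both above WT in both libraries labelled cKO, by amounts that did not pass. Oma1 (ENSMUSG00000035069.3, chr4:103313812-103371868 on the plus strand), the stress-activated metalloprotease, was the rarer, with 8.41 and 7.46 CPM in cKO 2 and cKO 3, against 4.79 and 6.40 CPM in WT 2 and WT 3. These levels rest on 151 and 133 counts in the libraries labelled cKO, against 96 and 130 counts in those labelled WT, and WT 2 was the low library. The log2 fold change was 0.50 (95% interval -0.14 to 1.15, edgeR adjusted p = 0.197), and it passed without WT 3 (0.73, adjusted p = 0.0376). Yme1l1 (ENSMUSG00000026775.9, chr2:23156369-23199260 on the plus strand), the i-AAA protease of the inner membrane, was among the more abundant of the 10 genes by CPM, at 122 and 114 CPM in cKO 2 and cKO 3, against 112 and 101 CPM in WT 2 and WT 3. The lowest library labelled cKO and the highest labelled WT nearly met. Its log2 fold change was 0.15 (95% interval -0.28 to 0.58, adjusted p = 0.563).

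Fis1 (ENSMUSG00000019054.13, chr5:136953275-136966234 on the plus strand), an adaptor anchored in the outer membrane by its tail, was the fission gene that rose. It had 121.7 and 123 CPM in cKO 2 and cKO 3, against 38.1 and 73.0 CPM in WT 2 and WT 3, from 2186 and 2192 counts in the libraries labelled cKO and 764 and 1483 counts in those labelled WT. The libraries labelled cKO were nearly equal and both lay above those labelled WT, which differed from each other by more on the log2 scale, though less in CPM, than WT 3 did from cKO 2. Fis1 averaged 122.4 ± 0.937 CPM over cKO 2 and cKO 3 and 55.6 ± 24.7 CPM over WT 2 and WT 3 (SD, n = 2 each). The fold change was 2.2, or 1.14 on the log2 scale (standard error 0.30, 95% interval 0.46 to 1.82, edgeR adjusted p = 0.0288). Between the libraries labelled WT alone, WT 3 over WT 2, the log2 ratio was 0.94, and between cKO 3 and cKO 2 it was 0.02. Each label has 1 library with Xist and 1 with the Y-linked Ddx3y, and the log2 ratio of Fis1 was 1.69 in the Xist pair (cKO 3 over WT 2) and 0.74 in the Ddx3y pair (cKO 2 over WT 3). The call was lost without cKO 2 (1.13, adjusted p = 0.0804) and without cKO 3 (1.10, adjusted p = 0.0844), while without WT 2 the log2 fold change was 0.74 (adjusted p = 0.00184) and without WT 3 it was 1.68 (adjusted p = 2.19e-05). It was also lost with no filter on low counts (adjusted p = 0.0667).

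Dnm1l (ENSMUSG00000022789.15, chr16:16312230-16358959 on the minus strand), the dynamin-related GTPase that carries out the division itself, did not share the direction of Fis1. It stood at 82.7 and 75.5 CPM in cKO 2 and cKO 3, against 105 and 88.8 CPM in WT 2 and WT 3. The libraries labelled cKO were both below those labelled WT. The log2 fold change was -0.29 (95% interval -0.74 to 0.16, edgeR adjusted p = 0.277), and it passed without WT 3 (-0.40, adjusted p = 0.0140). Reads of its annotated copy Gm13719, which matches 2153 bases at 91.1% identity, would be hard to assign, and that copy is listed at 0 in the 4 libraries.

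The remaining DRP1 receptors did not pass. Mff (ENSMUSG00000026150.14, chr1:82724890-82752394 on the plus strand), the main receptor in most mammalian cells, had 81.8 and 72.3 CPM in cKO 2 and cKO 3, against 51.0 and 69.6 CPM in WT 2 and WT 3. Only WT 2 stood clearly apart, and cKO 3 and WT 3 were close. The log2 fold change was 0.35 (95% interval -0.15 to 0.86, edgeR adjusted p = 0.244), and without WT 3 it was 0.60 and passed (adjusted p = 0.00416). Mief1 (ENSMUSG00000022412.14, chr15:80234018-80253371 on the plus strand), which encodes MiD51, had 17.6 and 16.1 CPM in cKO 2 and cKO 3, against 22.7 and 15.3 CPM in WT 2 and WT 3. It was the gene whose groups overlapped, with a log2 fold change of -0.17 (95% interval -0.75 to 0.41, adjusted p = 0.623), and 213 of its exon bases belong also to AC140267.1, which is listed at 0. Without WT 2 the log2 fold change of Mief1 was 0.15. Mief2 (ENSMUSG00000018599.5, chr11:60728398-60732951 on the plus strand), which encodes MiD49, had 7.35 and 9.54 CPM in cKO 2 and cKO 3, against 6.68 and 6.84 CPM in WT 2 and WT 3. The libraries labelled WT were nearly equal and cKO 2 lay close to them, and the log2 fold change of 0.32 did not pass (95% interval -0.29 to 0.93, adjusted p = 0.381).

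**Figure D2:**
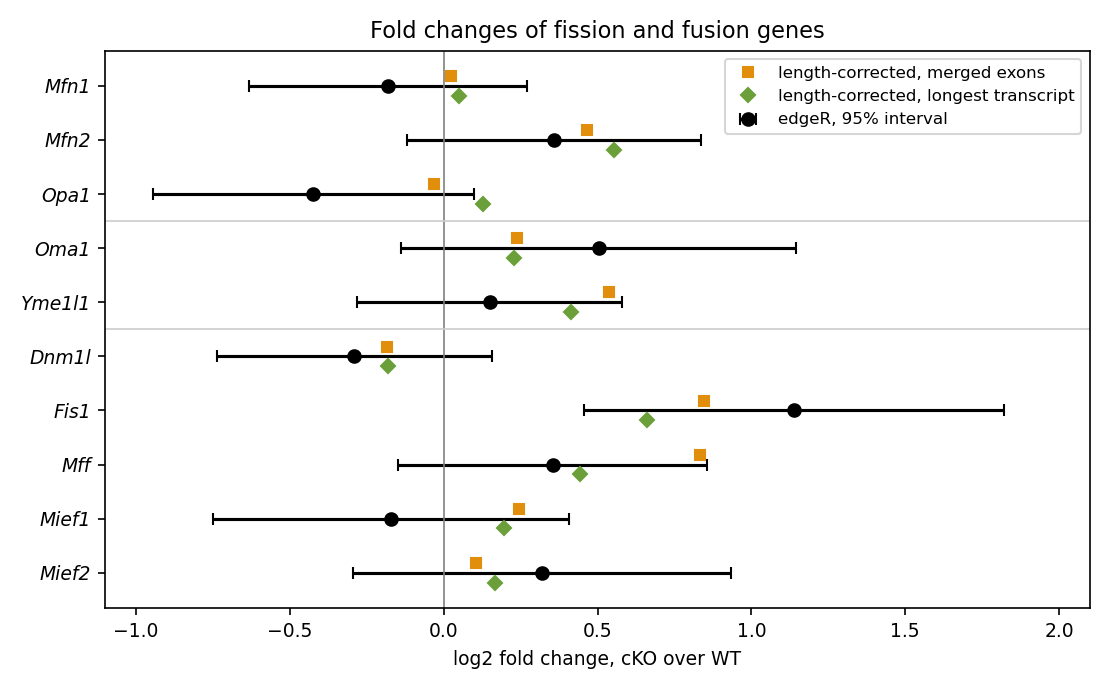
Log2 fold change, cKO over WT, of each gene from edgeR with its 95% interval (black), and the fold change after a correction for exon length with merged exons (orange) or the longest transcript (green). Fis1 is the gene whose interval lies wholly above 0, and the correction moves Opa1 from -0.42 to -0.03 with merged exons and to 0.13 with the longest transcript.

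Set side by side, the fission genes had the higher median fold change. In the difference of fusion and fission per library, the labels lay closer to each other when Fis1 was left out. The median log2 fold change was -0.18 over the 3 fusion GTPases (-0.42 to 0.36), 0.33 over the 2 proteases and 0.32 over the 5 fission genes (-0.29 to 1.14), beside -0.02 over all genes tested. The fusion and fission medians are the values of Mfn1 and Mief2, neither of which passed. Both lay at the medians of their length groups, described below (-0.18 and 0.32). The difference of the medians, fusion minus fission, was -0.50, with no test since the genes are not replicates. It was -0.22 with a correction for exon length and -0.067 with that correction on the longest transcript. In single libraries, the mean log2 CPM of the fusion genes minus that of the fission genes was -0.04 and -0.10 in cKO 2 and cKO 3, against 0.50 and 0.10 in WT 2 and WT 3. WT 2 stood apart from the other 3 libraries. With Fis1 left out of the fission genes, the values were 0.36 and 0.31 in cKO 2 and cKO 3 and 0.56 and 0.37 in WT 2 and WT 3, so that cKO 2 and WT 3 nearly met. The Opa1 to Fis1 ratio in CPM was 0.296 and 0.266 in cKO 2 and cKO 3, against 1.41 and 0.529 in WT 2 and WT 3. Opa1 and Fis1 have the lowest and the highest fold change of these genes, so a gap in their ratio was fixed in advance. They also lie in length groups with medians of -0.46 and 0.73. Nothing is read from the ratio. Without cKO 3 the difference of the medians was -0.24.

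**Figure D3:**
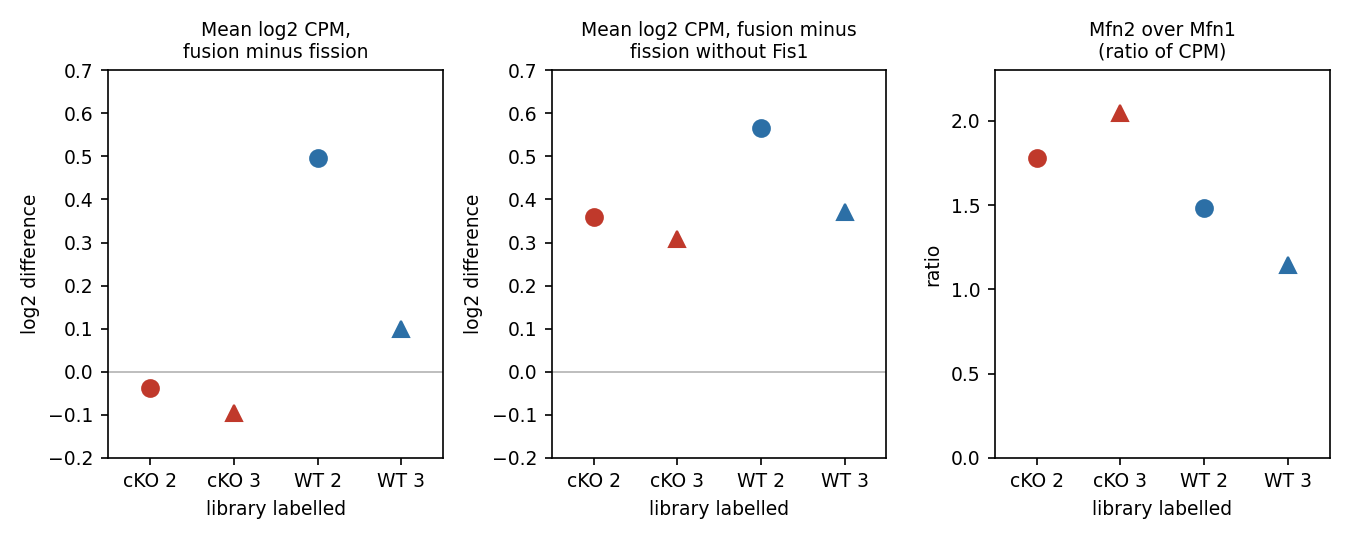
Per library (cKO 2, cKO 3, WT 2, WT 3): mean log2 CPM of the fusion genes minus that of the fission genes (left), the same without Fis1 (middle), and the ratio of Mfn2 to Mfn1 in CPM (right). In the left panel cKO 2 and cKO 3 lie at -0.04 and -0.10, against 0.50 and 0.10 for WT 2 and WT 3, with WT 2 apart. The middle panel brings cKO 2 (0.36) beside WT 3 (0.37).

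Gene length ran with these fold changes. Over protein-coding genes tested, cut into 10 groups by exon length, the median log2 fold change was 0.73 in the group with the shortest exons and -0.76 in that with the longest, and WT 3 over WT 2 showed the same run, 0.56 to -0.48, while cKO 3 over cKO 2 stayed at -0.02 at both ends. Fis1, with 1714 bases of exon, is in the shortest group, and its log2 fold change of 1.14 was above that group's median of 0.73. Among all genes tested it stood at percentile 92.0. Opa1, with 7875 bases, is in a group whose median was -0.46, next to its own -0.42. Oma1 (0.50 beside 0.44), Mief2 (0.32 beside 0.32) and Mfn1 (-0.18 beside -0.18) also lay at the medians of their groups. The genes that stood off their groups were Mff (0.35 beside -0.46), Yme1l1 (0.15 beside -0.46), Mfn2 (0.36 beside -0.07) and Mief1 (-0.17 beside -0.46) on the upper side and Dnm1l (-0.29 beside -0.07) on the lower. In 7 of the 10 genes WT 3 over WT 2 had the same sign as cKO over WT. The share of all genes with such a match was not counted, so nothing is read from the 7.

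**Figure D4:**
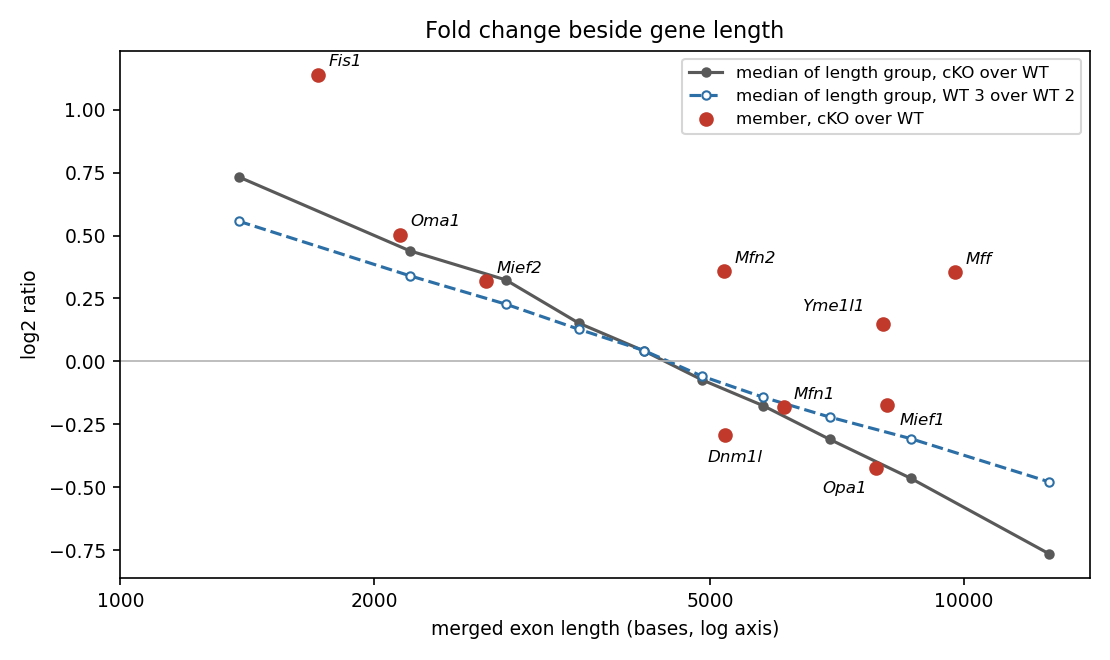
Log2 ratio against merged exon length (log axis): red points are the 10 genes, cKO over WT, the grey line joins the medians of 10 length groups of protein-coding genes for cKO over WT, and the dashed blue line joins those for WT 3 over WT 2. The grey line falls from 0.73 to -0.76, and Opa1, Mfn1, Oma1 and Mief2 lie on it while Fis1, Mff, Yme1l1 and Mfn2 lie above.

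With a correction for this trend in each library, Fis1 was still called, at a smaller log2 fold change of 0.85 (edgeR adjusted p = 0.0159), and Yme1l1 (0.54, adjusted p = 0.0326) and Mff (0.83, adjusted p = 0.0349) were called as well. Opa1 moved to -0.03 and Mfn1 and Mief1 changed sign, to 0.02 and 0.24. With the length of the longest transcript, an alternative added after the data were seen, Fis1 (0.66) and Mfn2 (0.55, adjusted p = 0.0247) were called and Opa1 was at 0.13. The merged exons of Mff span 9757 bases while its longest transcript has 3918, so its corrected value depends on which length is used. Counts of calls among all genes moved with the setting too. The correction called 16.5% of all genes higher and 12.7% lower, and with the longest transcript 16.2% and 11.8%. DESeq2 called 14.4% higher and 14.4% lower. The shares were 16.2% and 17.0% with the replicate number as a block, and 2.77% and 2.12% with no filter. Leaving out cKO 2 gave 3.37% higher and 4.15% lower, leaving out cKO 3 gave 3.31% and 5.73%, leaving out WT 2 gave 20.4% and 17.7%, and leaving out WT 3, where the most of the 10 genes were called, gave 28.4% higher and 26.8% lower. The cause of the trend was not tested.

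Compared per length, as TPM (counts per kilobase of merged exon, scaled to the same total in each library), Fis1 was the most abundant of the 10 transcripts in both groups, at 183 ± 7.33 TPM in the libraries labelled cKO and 125 ± 41.4 TPM in those labelled WT (SD, n = 2 each). In the libraries labelled cKO the order ran on with Dnm1l (38.8 TPM) and Yme1l1 (37.7 TPM), which did not differ beyond their spread, then Mfn2 (27.6 TPM), Mff (20.2 TPM), Mfn1 (12.3 TPM), Opa1 (11.1 TPM), Oma1 (9.45 TPM), Mief2 (7.97 TPM, its range overlapping that of Oma1) and Mief1 (5.32 TPM). In the libraries labelled WT it was Dnm1l (74.4 TPM), Yme1l1 (53.1 TPM), Mfn2 (33.8 TPM), Mff (24.2 TPM), Opa1 (23.6 TPM), Mfn1 (21.7 TPM), Oma1 (10.2 TPM), Mief2 (9.89 TPM) and Mief1 (9.48 TPM). There the ranges of Mff, Opa1 and Mfn1 overlapped, that of Mfn2 met the range of Opa1, and those of Oma1, Mief2 and Mief1 overlapped. Per length of the longest transcript, Mff averaged 38.7 TPM in the libraries labelled cKO and 46.6 TPM in those labelled WT, above Mfn2 at 25.4 TPM and 31.3 TPM, and Yme1l1 came before Dnm1l in the libraries labelled cKO, so the order of these genes depends on the length used. Fis1 made up 70.9% and 72.3% of the summed fission TPM in cKO 2 and cKO 3, against 42.1% and 59.8% in WT 2 and WT 3. Summed fission over summed fusion TPM was 4.97 and 5.01 in cKO 2 and cKO 3 and 2.43 and 4.02 in WT 2 and WT 3, and without Fis1 it was 1.45 and 1.39 in cKO 2 and cKO 3 and 1.41 and 1.61 in WT 2 and WT 3, where the groups overlapped. TPM depends on the length mixture of a library, so it is used here to order genes and not to compare labels gene by gene.

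Around this core, 43 other genes of mitochondrial shape in 6 lists were read in the same way, of which Gdap1 was too low to test. Of the 42 tested, 11 were called higher, 1 lower and 30 did not pass, where 14.1% of all genes tested were called higher and 14.3% lower. Their median log2 fold change was 0.29, beside -0.02 over all genes tested. The list with the highest median was the cristae organising system, MICOS, with its partners of the outer membrane SAM complex: 5 of 11 were called higher, all 11 had a positive fold change, as had 7899 of the 16157 genes tested, and the median was 0.72. Chchd6 (MIC25) had 42.4 and 41.9 CPM in cKO 2 and cKO 3, against 9.28 and 13.3 CPM in WT 2 and WT 3, a log2 fold change of 1.90 (edgeR adjusted p = 0.0122). Micos13, which bridges the MICOS subcomplexes, had 1.55 (adjusted p = 0.0149), Chchd3 (MIC19) 1.04 (adjusted p = 0.0190) and Apool (MIC27) 0.95 (adjusted p = 0.0326). The fifth, Samm50, the channel of the SAM complex, had 0.84 and is named after its value was seen. Each of these 5 was also called with the length correction, while 2 of the 11 genes were called higher without cKO 2 or without cKO 3, 8 without WT 2 and 10 without WT 3.

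Calls among genes that stabilise OPA1 or promote fusion became fewer when a library labelled cKO was left out, as did calls over all genes. Of the list of prohibitins and inner membrane proteases 2 of 5 were called higher and 0 lower. Of the 6 helpers of fusion 2 were called higher and 1 lower, where 14.1% of all genes tested were called higher and 14.3% lower. The prohibitins Phb and Phb2, which form rings in the inner membrane and stabilise long OPA1, were the genes called in the first of these lists. Phb had 154 and 172 CPM in cKO 2 and cKO 3, against 51.1 and 86.7 CPM in WT 2 and WT 3, a log2 fold change of 1.24 (edgeR adjusted p = 0.0189), and Phb2 had 0.82 (adjusted p = 0.0348). Among the helpers of fusion, Stoml2, which is needed for stress-induced fusion, had 1.02 (adjusted p = 0.0171) and Miga2, an outer membrane regulator of fusion, 0.82 (adjusted p = 0.0288). Its relative Miga1 was the gene called lower, at 15.6 and 13.8 CPM in cKO 2 and cKO 3, against 28.5 and 22.4 CPM in WT 2 and WT 3 (log2 fold change -0.79, adjusted p = 0.0366). With the length correction Miga1 was at -0.13 (adjusted p = 0.601), its merged exons being 11605 bases long. Pld6, a mitochondrial phospholipase of the same list named after its values were seen, had 0.278 and 0.449 CPM in cKO 2 and cKO 3, against 0.698 and 1.62 CPM in WT 2 and WT 3. Its log2 fold change of -1.66 did not pass (edgeR adjusted p = 0.0782), and with the length correction it was -1.94 and passed (adjusted p = 0.0340).

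Of 8 helpers of fission tested, 1 was called higher, a share near that of all genes, with 0 called higher without cKO 2 and 2 without WT 3. This gene, Mtfp1, which encodes an inner membrane protein that promotes division, stood at 4.51 and 3.70 CPM in cKO 2 and cKO 3, against 0.798 and 1.77 CPM in WT 2 and WT 3 (log2 fold change 1.67, edgeR adjusted p = 0.0288). The low levels of Mtfp1 in the libraries labelled WT make its fold change imprecise. With the length correction Mtfp1 was at 1.38 (edgeR adjusted p = 0.0240). Mtfr2 of the same list, named after its values were seen, was at -0.55 and did not pass (adjusted p = 0.144). With the length correction Mtfr2 was at -0.82 and passed as lower (adjusted p = 0.0280). Of 8 enzymes and anchors that modify DRP1 and its partners, the phosphatase Pgam5 was called at 0.60 (edgeR adjusted p = 0.0498). It was not called with DESeq2 (adjusted p = 0.060) or with the length correction (adjusted p = 0.162). Ppp3cb of the same list, named after its values were seen, was at 0.26 and did not pass (edgeR adjusted p = 0.331). With the length correction Ppp3cb was at 0.70 and passed (adjusted p = 0.0198). Of 4 genes that move mitochondria along microtubules none was called in either direction by edgeR, with 0 at an unadjusted p under 0.05, and the motor adaptors Trak1 and Trak2 had 0.16 (adjusted p = 0.638) and -0.41 (adjusted p = 0.272). With the length correction Trak1 was at 0.90 and passed (adjusted p = 0.00629). Fewer of the 42 genes were called in either direction without a library labelled cKO, and more without one labelled WT. The calls over all genes moved the same way.

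**Figure D5:**
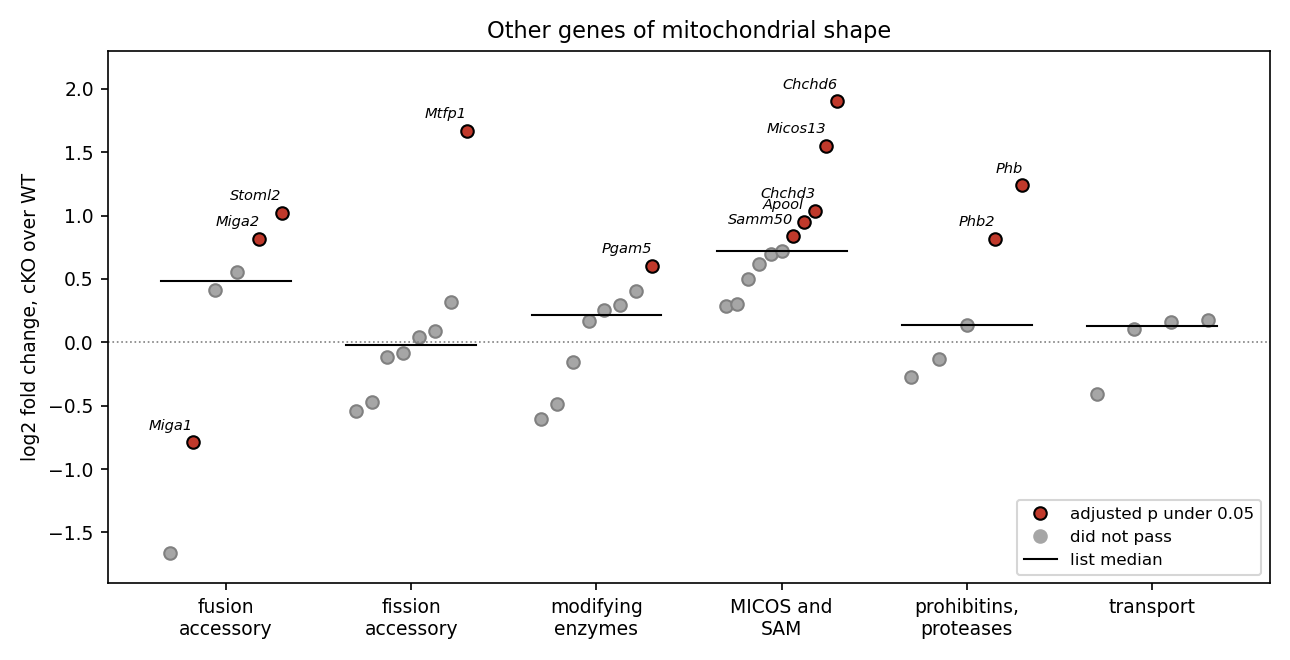
Log2 fold change, cKO over WT, of the 42 other genes of mitochondrial shape tested, by list, with a line at each list's median. Red points passed an edgeR adjusted p under 0.05 and are named (11 above 0 and Miga1 at -0.79), and all 11 genes of the MICOS and SAM list lie above 0.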

How the data were processed

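RNA of sorted skeletal progenitors was sequenced in 4 libraries, 2 labelled cKO and 2 labelled WT. The authors deposited raw counts per gene, without normalization. By the study's methods, reads were aligned to mm10 with STAR under GENCODE annotation and exon fragments were counted with featureCounts, whereas the submitters' processing notes list HTSeq 0.11.3 beside STAR 2.6.1b, and the human build GRCh38.p12, so which pipeline made the table is not settled. Of its identifiers 99.5% are in GENCODE vM21 (GRCm38), used here for positions and exon lengths. A paralog, overlapping gene or antisense partner can share reads, since the counting is not stated to use strand.

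Counts were tested with edgeR 4.0.16 in R 4.3.3 (filterByExpr with a minimum count of 10, trimmed mean of M-values, quasi-likelihood test with the label as the only term), with Benjamini-Hochberg adjustment over 16157 genes and a call at an adjusted p under 0.05. The scripts were tested on simulated data. Total counts of 18266573 to 20152872 limit the precision of genes such as Oma1 and Mief2. Alternatives were DESeq2 1.42.0 size factors, DESeq2 without and with ashr 2.2.63, scaling without genes of the cytosolic ribosome or the mitochondrial genome, other filters, the replicate number as a block, a fold limit of 0.585, leaving out each library, and a length correction, whose offset in each library is a lowess curve (span 0.3) of log2 CPM, with pseudocount 0.5, against log10 of exon length. The length correction with the longest transcript, and a block that pairs the libraries by Xist and Ddx3y, were added after the data were seen. The members, lists and tests were chosen with earlier results of these data known. All 10 members and Ecsit are named, with up to 4 called genes of smallest p per further list, or the 2 most abundant genes of a list with no call.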

Additional observations from a re-analysis of the deposited data

How the results depend on the processing

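Under 16 alternatives, the log2 fold changes of the 10 genes kept their direction and their side of the threshold in 139 of 160 cases, were called only under the alternative in 10, lost the call in 3 and reversed in 8. The reversals were Mfn1 with the length correction (0.023, with the replicate block 0.025, with the longest transcript 0.048), Opa1 with the longest transcript (0.13), and Mief1 with the length correction (0.24, with the block 0.25, with the longest transcript 0.19) and without WT 2 (0.15, and -0.43 without WT 3). The number of the 10 genes called higher was 1, and 0 with no filter, 3 with the length correction, 3 with that and the block, 2 with the longest transcript, and 0 to 3 without single libraries, where the number called lower was 0 to 2. Over all genes, 2275 were higher and 2314 lower, 869 and 665 with no filter, and 535 to 4584 and 670 to 4329 without single libraries, the lowest counts being those without a library labelled cKO and the highest those without WT 3. No filter adds low genes (31336 tested) and moved the median of all genes from -0.02 to -0.18. The Ecsit fold change was 1.06 with no filter (adjusted p = 0.0557), and 0.76 to 1.34 without single libraries, where its call was lost without either library labelled cKO. Fusion minus fission medians were -0.50, and -0.22 with the length correction, -0.22 with that and the block, -0.067 with the longest transcript, and -0.51 to -0.24 without single libraries. Of the 42 other genes, 11 were higher and 1 lower, 5 and 0 with no filter, and 3 to 19 and 0 to 4 without single libraries. The number lower was 2 with the length correction, 2 with that and the block and 3 with the longest transcript. Fission over fusion TPM averaged 4.99 in libraries labelled cKO and 3.23 in those labelled WT, and 7.05 and 4.34 with the longest transcript. Beyond these values the causes were not tested.

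Nothing in the labels says that the replicate numbers pair the libraries, and the correlation of deviations from the group means between same-numbered libraries was -0.0894, a single value since with 2 libraries per label both pairs give the same one. With the replicate block Fis1 was at 1.21 (edgeR adjusted p = 0.000159) and stayed the 1 gene of the 10 that was called. Where a library is left out, the lone library of its label is taken to vary as the other label's libraries do. With 2 libraries per label, the 95% interval of each of the 9 genes that did not pass includes 0, and changes of the size seen in Mfn1, Yme1l1 or Mief1 were not detectable here.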
